A study of Mus musculus with 18 samples.

Results

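Histone marks are set and removed by a small number of enzyme families. Here 64 genes of these families were followed through a 24 h ethanol exposure of mouse astrocytes. Some of them are described below by substrates other than histones, such as actin. The genes were taken by symbol from the table of counts, as protein-coding genes named *Hdac*, *Sirt*, *Kat*, *Kmt*, *Kdm*, *Ezh* or *Setd* with the number or letter of a family member, together with *Crebbp* and *Ep300*. They were 64 of the 51912 genes counted and of the 22025 protein-coding genes, and the rule itself uses no measured value. All 64 passed the filter of at least 10 read pairs over the 18 libraries that left 24495 genes for the tests. By role they were 4 class I and 7 class II and IV histone deacetylases, 7 sirtuins, 9 lysine acetyltransferases, 7 methyltransferases of histone H3 lysine 4 (H3K4), 7 of the repressive marks at H3K27, H3K9 and H4K20, 6 other Setd methyltransferases and 17 histone demethylases. The roles follow gene families. *Kmt2e*, regarded as catalytically inactive, is counted with H3K4, and *Setd7*, which also methylates H3K4, with the other Setd genes.

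The cells were primary cortical astrocytes from pups hemizygous for the transgene Tg(Aldh1l1-EGFP/Rpl10a)JD130Htz, which was carried on a B6;FVB background and bred to C57BL/6J, and male and female cortices of postnatal day 0 were pooled in equal number. All dishes, controls included, carried the transgene, in which the *Aldh1l1* promoter drives an EGFP-tagged ribosomal protein L10a, so only cells with an active *Aldh1l1* promoter contribute tagged ribosomes. After 14 days in culture the cells were replated, grown for 6 days, kept without serum for 24 h and then given serum-free medium with 50 mM ethanol or without ethanol for 24 h. Translating RNA affinity purification (TRAP) pulled RNA down with the tagged ribosomes (the IP fraction) from 6 control and 6 ethanol-treated dishes, and the RNA of the whole lysate (the input fraction) was sequenced from 3 dishes of either treatment, those numbered 4 to 6. Within a fraction replicates were separate dishes, so the p-values for ethanol within IP and within input measure the spread between dishes. Dishes 4 to 6 of either treatment gave both an IP and an input library. The main tests that span the fractions did not account for this.

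Acetyltransferases place acetyl groups on histone lysines, which loosens chromatin and recruits bromodomain readers, and deacetylases, including the NAD-dependent sirtuins, remove them. Methyltransferases act at defined lysines: marks at H3K4 accompany active promoters and enhancers, while those at H3K27, H3K9 and H4K20 accompany silenced or compacted chromatin, and the demethylases reverse most of them. These enzymes use acetyl-CoA, S-adenosylmethionine, NAD and α-ketoglutarate, and in astrocytes they take part in the switch from precursor to glial gene programs and in reactive states.

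Libraries held 74239854 to 132810705 pairs on genes, with a median of 84119135. The label of the cells was checked with 10 astrocyte markers, whose summed level was 2383 to 2562 CPM (counts relative to library size, with TMM scaling) in IP and 1515 to 1595 CPM in input. *Aldh1l1* averaged 383 CPM in IP control and 189 CPM in input control libraries, and all 10 markers were detected, although *S100b* was low at 2.64 CPM in IP control. The 10 microglia markers summed to 86.2 to 104 CPM in input and 15.0 to 19.2 CPM in IP. In input control libraries each of the other lists summed to more than the microglia markers. Endothelial and mural, oligodendrocyte lineage and neuron markers summed to more in IP control than in input control, with the IP sums given below. Fibroblast and meningeal markers summed to 2112 to 2169 CPM in input control and 2038 to 2168 CPM in input ethanol libraries. Endothelial and mural markers summed to 1298 to 1368 and 899 to 967 CPM in the same groups. Yet 6 of these 10 markers averaged below 1 CPM or were not tested in either group, with *Pecam1* at 0.308 CPM in input control. In IP nearly all of the sum was *Acta2*, as given below. In input control, oligodendrocyte lineage markers summed to 262 to 283 CPM and neuron markers to 112 to 115 CPM. In input, and for residual background in IP, a change in the number of cells of a type and a change in RNA per cell cannot be told apart.

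The enzyme genes spanned a wide range of levels, which are compared per kb of the longest transcript. *Sirt2*, a mostly cytoplasmic deacetylase known for its expression in myelinating cells, stood far above the rest at 119 CPM per kb in IP control libraries. *Hdac1*, the catalytic subunit of several corepressor complexes, followed at 48.5, *Setd3*, which methylates actin, at 40.7, the H3K4 demethylase *Kdm1a* at 34.5 and *Setd7* at 33.3 CPM per kb. The lowest were *Kdm4d* at 0.459, *Setd4* at 1.08, and *Sirt1* and *Kdm7a* at 1.63 CPM per kb each. Within families some paralogs were unequal. *Ezh1* stood at 11.4 CPM per kb and *Ezh2* at 4.57, and *Ep300* at 9.13 and its paralog *Crebbp* at 4.62. The H3K27 demethylases *Kdm6a* and *Kdm6b* were close, at 6.49 and 6.14. The 5 *Kmt2* genes ran from 2.56 (*Kmt2d*) to 13.3 CPM per kb (*Kmt2e*).

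**Figure D1:**
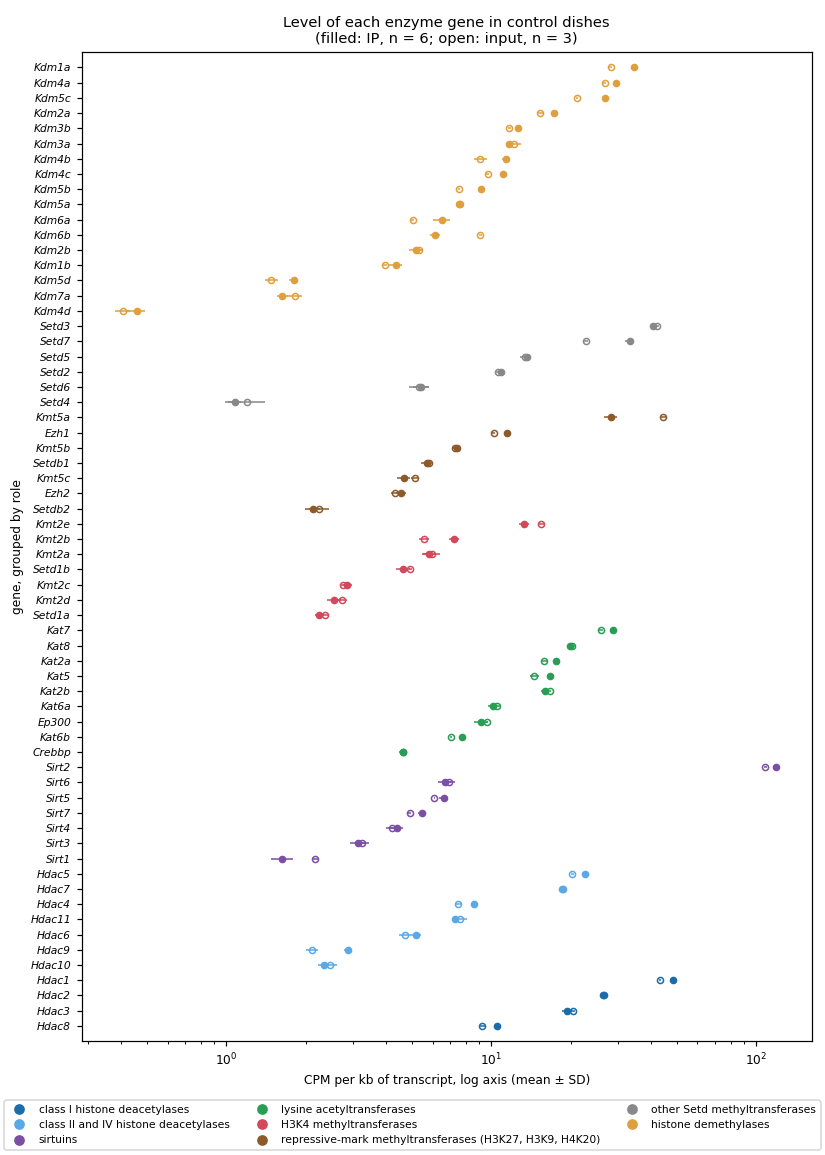
Level of each of the 64 genes in control dishes as CPM per kb of the longest transcript (log axis, mean ± SD), with IP (6 libraries) as filled and input (3 libraries) as open points, grouped and coloured by role. *Sirt2* lies at the right end and *Kdm4d* at the left end in both fractions, and filled and open points of most genes lie close together.

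Libraries of a group differed little at these genes. The coefficient of variation over the 6 IP control libraries was 0.92% to 9.57% with a median of 3.55%, and over the 6 IP ethanol libraries its median was 4.12%. In 57 of the 64 genes the mean was at least 10 CPM in every group. STAR counted pairs without regard to strand and set aside pairs that fall on 2 overlapping genes as ambiguous, so some members that overlap an antisense gene lost pairs. The count used was 0.523 of the count on the annotated strand for *Hdac11*, 0.677 for *Sirt3*, 0.701 for *Kat5*, 0.847 for *Kdm2b* and 0.860 for *Ezh2*. For others, *Setd1a* and *Setd4* the most, it was above the count on the annotated strand, and this count does not part pairs of the opposite strand from their own. The counts for each strand do. *Setd1a* had 20983 pairs on the annotated and 2710 on the opposite strand, and *Setd4* had 4133 and 372.

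To show the DNA in front of members that changed, the 250 bases upstream of the RefSeq start are printed 5′ to 3′ on the gene's strand for the 3 genes that were called for ethanol in both fractions, had no overlap between treatments in IP, and whose window lies outside every exon of the GENCODE annotation. Capitals mark matches, on either strand, of the GC box (GGGCGG) and the CCAAT box (CCAAT). The windows (RefSeq, GRCm38.p6) lie at chr11:102230173-102230422 on the minus strand, chr11:101226464-101226713 on the minus strand and chr10:36974294-36974543 on the plus strand.
Hdac5 (higher with ethanol): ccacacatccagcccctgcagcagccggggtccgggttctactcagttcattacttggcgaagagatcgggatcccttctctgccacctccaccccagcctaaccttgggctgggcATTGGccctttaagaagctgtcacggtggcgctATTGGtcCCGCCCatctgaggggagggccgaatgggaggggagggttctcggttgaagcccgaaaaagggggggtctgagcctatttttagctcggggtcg
Ezh1 (higher with ethanol): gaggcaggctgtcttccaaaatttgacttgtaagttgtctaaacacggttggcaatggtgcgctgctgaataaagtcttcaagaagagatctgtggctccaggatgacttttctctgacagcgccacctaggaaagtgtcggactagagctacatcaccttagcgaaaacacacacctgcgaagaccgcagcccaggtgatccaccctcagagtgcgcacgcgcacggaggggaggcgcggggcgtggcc
Hdac2 (lower with ethanol): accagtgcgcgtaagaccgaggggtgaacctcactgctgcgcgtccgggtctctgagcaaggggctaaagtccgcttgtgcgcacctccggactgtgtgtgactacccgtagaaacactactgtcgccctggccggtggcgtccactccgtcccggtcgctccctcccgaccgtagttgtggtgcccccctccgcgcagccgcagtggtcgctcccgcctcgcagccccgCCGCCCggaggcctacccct
The *Hdac5* window held a GC box and 2 CCAAT boxes, that of *Hdac2* a GC box close to the start, and that of *Ezh1* neither. None of the 3 held the E-box CACGTG, the cell-cycle element TTTGAA, the E2F forms TTCCCGC and TTGGCGC or the forkhead motif GTAAACA, which were searched in the same way.

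Of the 64 members, 51 had a window of the 250 bases upstream of a RefSeq start. Unlike the printed windows, these were kept whether or not they overlap annotated exons. Those of *Crebbp* and *Ep300* lie in exons over all 250 bases. The 51 windows had a median GC content of 59.6% and a median of 15 CpG dinucleotides, against 52.4% and 6 over 32817 promoters of all genes. A GC box was present in 28 of the 51 windows (54.9%, against 32.7% of all promoters) and a CCAAT box in 22 (43.1%, against 33.8%). The other motifs were in 5.88% (CACGTG), 11.8% (TTTGAA), 3.92% (TTCCCGC), 1.96% (TTGGCGC) and 1.96% (GTAAACA) of the 51 windows, against 6.02%, 16.0%, 3.82%, 1.97% and 3.16% of all promoters. The GC box was found in 7 of the 11 windows of members that were higher with ethanol in IP, in 1 of the 3 windows of members that were lower and in 20 of the 37 windows of members not called. These matches are a description of the letters in the windows.

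Ethanol changed 19 of the 64 members in the IP fraction at an adjusted p below 0.05 (edgeR's quasi-likelihood test, Benjamini-Hochberg adjustment over all genes), 15 higher and 4 lower. Over all genes tested 21.4% were called, 11.9% higher and 9.48% lower, and over protein-coding genes averaging at least 1 CPM 37.7% were called, so the share of members called was not above that of genes of like level. In 10 members, 7 higher and 3 lower, the 6 ethanol libraries did not overlap the 6 control libraries, which over all genes was the case for 9.96% (5.09% higher and 4.87% lower). All changes were small. The largest was an increase of 26.7%, and no member passed a test against a fold change of 1.2, which 0.388% of all genes passed. The median log2 fold change over the 64 members was 0.044, beside 0.0054 over all genes tested and 0.016 over the protein-coding genes averaging at least 1 CPM.

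In input, 19 of the 64 members were called for ethanol as well, 10 higher and 9 lower, where 15.0% of all genes (7.21% higher and 7.78% lower) and 27.1% of the protein-coding genes averaging at least 1 CPM were called. The 3 ethanol and 3 control libraries did not overlap in 20 members, 13 higher and 7 lower, which with so few libraries was the case for 27.1% of all genes (14.0% higher and 13.1% lower). No member passed the test against a fold change of 1.2 in input, which 0.225% of all genes passed. The median log2 fold change over the members was 0.011, beside -0.00092 over all genes. The input libraries come from dishes that are also in the IP comparison, so both sets of calls share dishes: 10 members were called in both fractions, all 10 in the same direction, 9 in IP only, 9 in input only and 36 in neither.

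Because libraries can differ in how counts depend on GC content and transcript length, the tests were repeated after these trends had been removed from each library. The removal also takes out any part of an ethanol effect that runs with GC content or length. Why calls were lost was not tested. In IP 15 members were then called, 9 higher and 6 lower, in place of 15 higher and 4 lower, while 21.9% of all genes were called. Of the 19 calls 10 remained and 9 did not, and 5 members were called that had not been. In input 18 members were called after the removal, 7 higher and 11 lower, while 15.0% of all genes were called, and 16 of the 19 calls remained. The 8 members called in both fractions and after the removal in both were *Hdac1*, *Hdac2*, *Hdac5*, *Hdac11*, *Kat2b*, *Kdm3a*, *Ezh1* and *Kmt2e*.

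**Figure D2:**
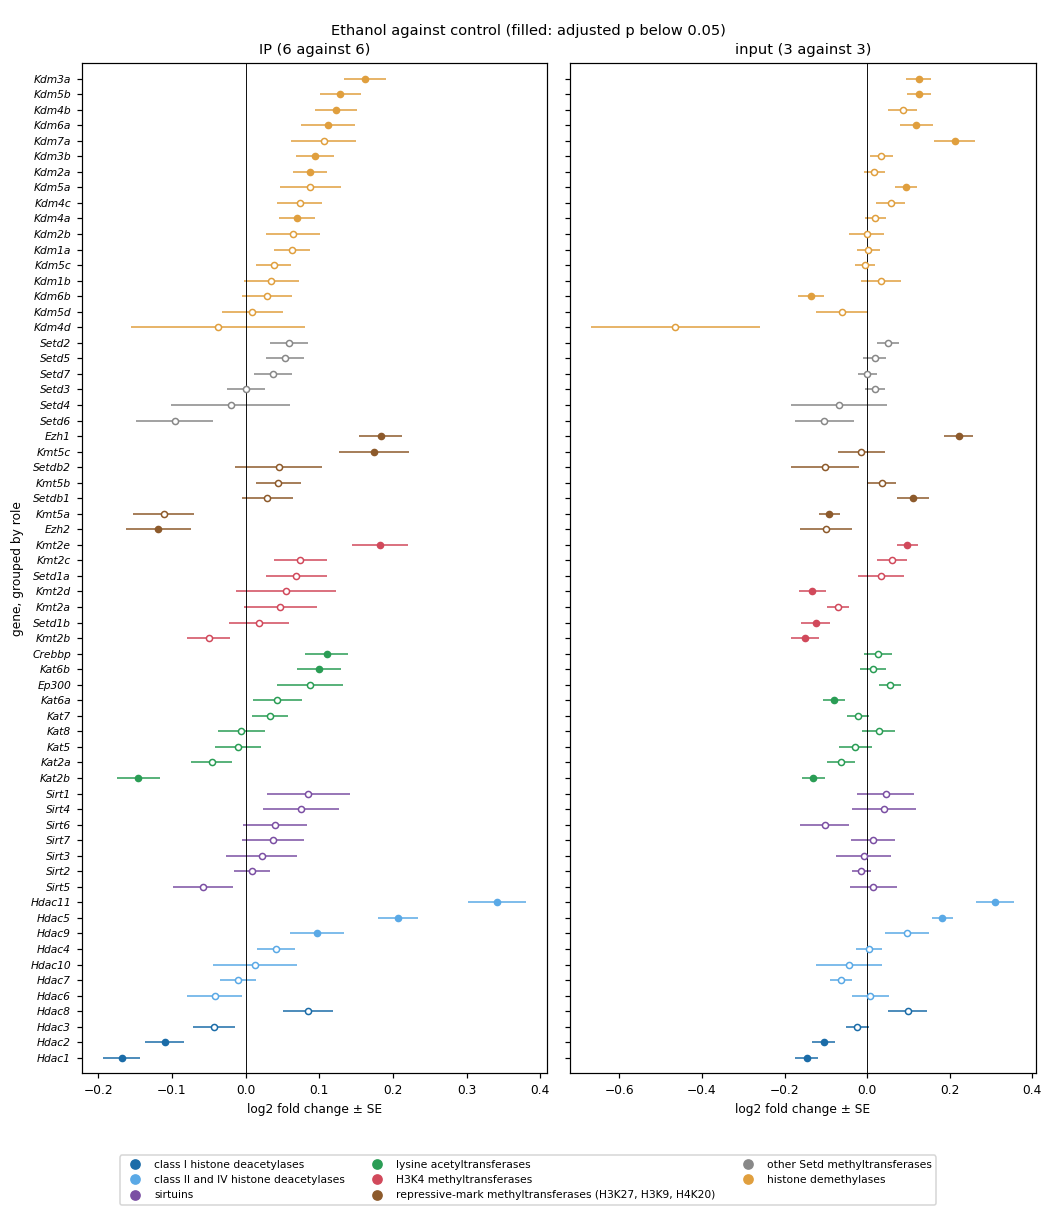
Log2 fold change of ethanol against control (± SE) for each member in IP (left, 6 against 6 libraries) and input (right, 3 against 3 libraries, wider axis), grouped and coloured by role, with filled points for an adjusted p below 0.05. *Hdac11* has the largest increase in both panels, *Hdac1* and *Hdac2* lie left of zero in both, and the demethylases lie mostly right of zero in IP.

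Among the class I deacetylases, most of which are the nuclear catalytic subunits of large corepressor complexes, 2 of 4 fell in IP and the same 2, *Hdac1* and *Hdac2*, in input. Shares called over all genes were 21.4% in IP and 15.0% in input, and 37.7% and 27.1% over protein-coding genes averaging at least 1 CPM. *Hdac1* (ENSMUSG00000028800, chr4:129516104-129542713, minus strand, GRCm38) held 96.1 to 102 CPM (median 99.1) in the 6 IP control libraries and 83.3 to 89.2 CPM (median 88.3) in the 6 ethanol libraries. Every ethanol library lay below every control library, and *Hdac1* fell by 11.02% (log2 fold change -0.17 ± 0.025 (SE), edgeR adjusted p = 4.55e-07). In input the 3 control libraries held 87.8, 87.3 and 88.7 CPM and the 3 ethanol libraries 79.2, 78.2 and 81.7 CPM, again without overlap (log2 fold change -0.15 ± 0.027, edgeR adjusted p = 2.92e-06).

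*Hdac2* (ENSMUSG00000019777, chr10:36974544-37001889, plus strand), the paralog that forms heterodimers with HDAC1, held 82.6 to 90.1 CPM (median 85.6) in IP control and 75.7 to 82.0 CPM (median 79.9) in IP ethanol libraries. The groups did not overlap, and *Hdac2* fell by 7.35% (log2 fold change -0.11 ± 0.026, edgeR adjusted p = 0.00104). Its input libraries held 86.0, 86.1 and 87.5 CPM in control and 81.3, 78.2 and 82.5 CPM in ethanol dishes (log2 fold change -0.11 ± 0.027, edgeR adjusted p = 0.00172), a call that was lost without ethanol replicate 5 (adjusted p = 0.0518). The other two class I genes did not pass the test in either fraction. *Hdac3*, the catalytic subunit of the NCoR and SMRT complexes, had log2 fold changes of -0.043 in IP and -0.024 in input, and *Hdac8*, which deacetylates the cohesin subunit SMC3, had 0.085 and 0.10. After removal of GC and length trends *Hdac8* was called higher in IP (log2 fold change 0.11, edgeR adjusted p = 0.00417), so that within the class the IP calls went both ways.

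The 25 proliferation markers, a list that includes *Mki67*, *Top2a* and the replication genes *Pcna* and *Mcm2*, all fell with ethanol in both fractions. Their summed level was 387 to 411 CPM in IP control and 320 to 337 CPM in IP ethanol libraries, and 397 CPM in each of the input control libraries against 302 to 321 CPM in input ethanol libraries. *Hdac1*, *Hdac2* and, below, *Ezh2* are also genes with high expression in dividing cells, and the part of the proliferation markers in their change was not tested.

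Calls for ethanol covered 37.7% of protein-coding genes averaging at least 1 CPM in IP and 27.1% in input (21.4% and 15.0% of all genes). Of the 7 class II and IV deacetylases 3 rose in IP, namely *Hdac5*, *Hdac9* and *Hdac11*, and 2, *Hdac5* and *Hdac11*, rose in input, with none lower in either fraction. After removal of GC and length trends 2 were higher and 1 was lower in each fraction. *Hdac11* (ENSMUSG00000034245, chr6:91156665-91174692, plus strand), the sole class IV deacetylase, which also removes fatty acyl groups from lysine, had the largest change of all 64 members in IP. It held 18.6 to 19.9 CPM (median 19.6) in IP control and 22.7 to 28.1 CPM (median 24.0) in IP ethanol libraries. All 6 ethanol libraries lay above all 6 controls, and the highest, ethanol replicate 2, stood somewhat apart. The increase was 26.7% (log2 fold change 0.34 ± 0.040, edgeR adjusted p = 5.42e-10). In input *Hdac11* held 19.3, 19.8 and 21.6 CPM in control and 24.5, 25.5 and 25.5 CPM in ethanol libraries (log2 fold change 0.31 ± 0.046, edgeR adjusted p = 1.66e-09). With counts of the annotated strand alone, which keep the pairs it shares with its antisense neighbours, the log2 fold change was 0.32 in IP and 0.30 in input.

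*Hdac5* (ENSMUSG00000008855, chr11:102194432-102230166, minus strand) encodes a class IIa deacetylase that shuttles out of the nucleus on phosphorylation and binds MEF2 factors. Its level was 119 to 128 CPM (median 121) in IP control and 129.8 to 146.5 CPM (median 143) in IP ethanol libraries, without overlap (increase of 15.4%, log2 fold change 0.21 ± 0.027, edgeR adjusted p = 9.92e-09). The input libraries held 108, 111 and 108 CPM in control and 124, 128 and 120.3 CPM in ethanol dishes (log2 fold change 0.18 ± 0.025, edgeR adjusted p = 5.97e-11). *Hdac9*, a further class IIa gene, overlapped between treatments, with 21.7 to 23.6 CPM (median 22.8) in IP control and 22.3 to 25.4 CPM (median 24.7) in IP ethanol libraries. Its call rested on a log2 fold change of 0.10 ± 0.037 with an edgeR adjusted p of 0.0495, which rose above the threshold without any one of 10 of the 12 IP libraries (all but ethanol replicates 2 and 3, up to 0.176) and after removal of GC and length trends (0.27). In input *Hdac9* held 16.3, 16.2 and 17.7 CPM in control and 18.2, 18.3 and 17.4 CPM in ethanol libraries (edgeR adjusted p = 0.246). *Hdac4*, *Hdac6*, *Hdac7* and *Hdac10* did not pass the test, with log2 fold changes from -0.042 to 0.041 in IP, but after removal of the trends *Hdac7* was called lower in both fractions (-0.10 with an edgeR adjusted p of 0.00019 in IP, -0.084 with 0.00969 in input).

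**Figure D3:**
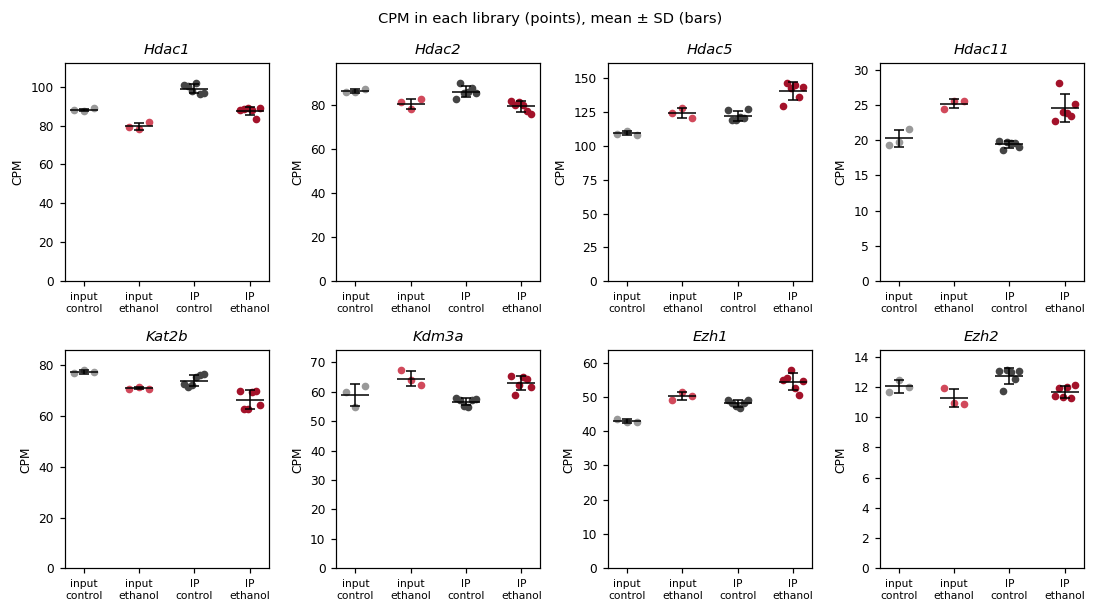
CPM of 8 members in every library (points) with the mean ± SD of each group (bars), on axes that start at 0. Ethanol and control libraries are separate in both fractions for *Hdac1*, *Hdac2*, *Hdac5*, *Hdac11*, *Kat2b*, *Kdm3a* and *Ezh1*, while those of *Ezh2* overlap. For *Kdm3a* in input the margin is narrow, with the highest control library at 62.07 CPM and the lowest ethanol library at 62.11 CPM.

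No sirtuin was called for ethanol in either fraction, where 21.4% of all genes were called in IP and 15.0% in input. *Sirt2*, the most abundant, held 244 to 258 CPM (median 252) in IP control and 236 to 265 CPM (median 252) in IP ethanol libraries, and its log2 fold changes were 0.0083 ± 0.024 in IP and -0.014 ± 0.023 in input. Over the 7 sirtuins the log2 fold changes ran from -0.058 (*Sirt5*, a mitochondrial desuccinylase) to 0.085 (*Sirt1*, the nuclear enzyme that deacetylates p53 and PGC-1α) in IP, and from -0.10 (*Sirt6*) to 0.045 (*Sirt1*) in input. None had an unadjusted p below 0.05 in either fraction by edgeR.

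Ethanol calls took in 21.4% of all genes in IP and 15.0% in input (37.7% and 27.1% of protein-coding genes averaging at least 1 CPM). Among the 9 acetyltransferases, 2 rose and 1 fell in IP, and 2 fell in input. *Kat2b* (ENSMUSG00000000708, chr17:53566861-53672720, plus strand), which encodes PCAF, was the one that fell in both. It held 71.2 to 76.4 CPM (median 73.9) in IP control and 62.6 to 69.9 CPM (median 67.0) in IP ethanol libraries, without overlap, and fell by 9.60% (log2 fold change -0.15 ± 0.029, edgeR adjusted p = 0.000105). The input libraries held 76.8, 78.1 and 77.1 CPM in control and 70.7, 71.3 and 70.6 CPM in ethanol dishes (log2 fold change -0.13 ± 0.028, edgeR adjusted p = 9.43e-05). Its paralog *Kat2a*, which encodes GCN5, had log2 fold changes of -0.046 in IP and -0.064 in input and passed the test in IP only after removal of GC and length trends (-0.083, edgeR adjusted p = 0.00665).

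*Crebbp* and *Ep300* encode CBP and p300, coactivators that acetylate H3K27 and H3K18 at enhancers. *Crebbp* held 47.5 to 52.7 CPM (median 49.9) in IP control and 51.1 to 56.4 CPM (median 53.9) in IP ethanol libraries, overlapping ranges, and was called higher (log2 fold change 0.11 ± 0.030, edgeR adjusted p = 0.00378). After removal of GC and length trends the value was 0.048 (edgeR adjusted p = 0.188), and in input, with 48.5, 51.1 and 51.0 CPM in control and 51.7, 51.2 and 50.9 CPM in ethanol libraries, the log2 fold change was 0.026 ± 0.033. *Ep300* did not pass the test, with 79.5 to 95.4 CPM (median 86.4) in IP control, 85.0 to 97.4 CPM (median 94.5) in IP ethanol and 92.2, 92.0 and 93.5 CPM against 98.4, 99.3 and 91.3 CPM in input (log2 fold change 0.087 ± 0.045 in IP and 0.054 ± 0.027 in input). Without IP control replicate 6 *Ep300* passed the test in IP (log2 fold change 0.11, edgeR adjusted p = 0.0275). The values of both paralogs in IP lay within 1 SE of *Ep300* of each other, and the difference between them was not tested.

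Of the MYST family members, *Kat6b* (MORF) was called higher in IP (log2 fold change 0.10 ± 0.030, edgeR adjusted p = 0.00995), a call that was lost without control replicate 2 (adjusted p = 0.0528) and after removal of the trends (adjusted p = 0.12). *Kat6a* (MOZ) was called lower in input, where control libraries held 96.9, 93.3 and 97.9 CPM and ethanol libraries 89.0, 92.7 and 91.5 CPM (log2 fold change -0.080 ± 0.027, edgeR adjusted p = 0.0212). That call was lost without control replicate 4, control replicate 6 or ethanol replicate 4 (adjusted p up to 0.184). In IP *Kat6a* held 87.9 to 96.4 CPM (median 92.9) in control and 87.4 to 104 CPM (median 93.4) in ethanol libraries, with overlap (log2 fold change 0.043 ± 0.033). *Kat5*, *Kat7* and *Kat8*, the catalytic subunits of TIP60, HBO1 and MOF complexes, were not called, with log2 fold changes from -0.011 to 0.033 in IP and from -0.028 to 0.027 in input.

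Beside the next counts stand calls for 21.4% of all genes in IP and 15.0% in input. Among protein-coding genes averaging at least 1 CPM these shares were 37.7% and 27.1%. Of the 7 H3K4 methyltransferases 1 was called higher in IP, and 1 was called higher and 3 lower in input. *Kmt2e*, a family member regarded as catalytically inactive, was the one that rose in both (log2 fold change 0.18 ± 0.038 with an edgeR adjusted p of 0.00121 in IP, 0.10 ± 0.025 with 0.00172 in input). Without control replicate 6 the input call was lost (adjusted p = 0.0599). In IP it averaged 97.3 ± 4.46 CPM in control and 109.9 ± 6.96 CPM in ethanol libraries (SD, n = 6).

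*Kmt2b*, *Kmt2d* and *Setd1b* fell in input and were not called in IP. *Kmt2b*, which methylates H3K4 at promoters, held 47.3, 45.3 and 49.5 CPM in input control and 45.6, 42.8 and 39.8 CPM in input ethanol libraries (log2 fold change -0.15 ± 0.035, edgeR adjusted p = 0.000251), and 58.9 to 65.9 CPM (median 61.0) against 55.003 to 61.5 CPM (median 59.3) in IP (-0.050 ± 0.029, adjusted p = 0.251). After removal of GC and length trends *Kmt2b* was lower in both fractions (-0.14 in IP, edgeR adjusted p = 2.34e-06, and -0.17 in input). *Kmt2d*, which places monomethyl marks at enhancers, held 51.3, 54.4 and 56.6 CPM in input control and 54.3, 48.1 and 46.0 CPM in input ethanol libraries (log2 fold change -0.13 ± 0.033, edgeR adjusted p = 0.000818), and the highest ethanol library lay among the controls.

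The *Kmt2d* call was lost without control replicate 6 or ethanol replicate 6 (adjusted p up to 0.0899). In IP *Kmt2d* held 46.1 to 54.5 CPM (median 50.8) in control and 42.8 to 55.9 CPM (median 54.6) in ethanol libraries, with ethanol replicate 3 below all others (log2 fold change 0.055 ± 0.068). *Setd1b*, the catalytic subunit of a COMPASS complex, held 43.4, 43.6 and 44.6 CPM in input control and 41.7, 41.9 and 37.3 CPM in input ethanol libraries (log2 fold change -0.12 ± 0.036, edgeR adjusted p = 0.00524), a call that was lost without ethanol replicate 6 (adjusted p = 0.222). Its IP libraries held 37.5 to 44.5 CPM (median 40.7) in control and 36.3 to 43.9 CPM (median 41.9) in ethanol dishes and did not separate (log2 fold change 0.018 ± 0.041). *Kmt2a*, *Kmt2c* and *Setd1a* were not called in either fraction, with log2 fold changes from 0.047 to 0.074 in IP and from -0.072 to 0.060 in input.

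Among the methyltransferases of repressive marks, 2 of 7 rose and 1 fell in IP (2 and 2 with DESeq2 size factors), as did 2 and 1 in input, and *Ezh1* was the one called in both. For all genes the shares called were 21.4% in IP and 15.0% in input. They were 37.7% and 27.1% for protein-coding genes averaging at least 1 CPM. *Ezh1* and *Ezh2* encode the alternative catalytic subunits of Polycomb repressive complex 2, which methylates H3K27. EZH2 is the form of dividing cells and EZH1 that of resting cells. *Ezh1* (ENSMUSG00000006920, chr11:101191115-101226463, minus strand) held 46.8 to 49.2 CPM (median 48.2) in IP control and 50.7 to 57.8 CPM (median 54.7) in IP ethanol libraries, without overlap (increase of 13.5%, log2 fold change 0.18 ± 0.029, edgeR adjusted p = 1.87e-06). In input it held 43.7, 42.6 and 42.8 CPM in control and 49.2, 51.5 and 50.1 CPM in ethanol libraries (log2 fold change 0.22 ± 0.034, edgeR adjusted p = 6.18e-09).

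*Ezh2* (ENSMUSG00000029687, chr6:47530139-47595341, minus strand) moved the other way in IP, with 11.7 to 13.1 CPM (median 13.0) in control and 11.2 to 12.1 CPM (median 11.7) in ethanol libraries (log2 fold change -0.12 ± 0.044, edgeR adjusted p = 0.0425). The groups overlapped through control replicate 2, and the call was lost without any one of control replicates 1, 3, 4 and 6 and ethanol replicates 1, 3 and 5 (adjusted p up to 0.0821) and after removal of GC and length trends (-0.10, adjusted p = 0.0641, all by edgeR). In input *Ezh2* held 11.7, 12.5 and 11.995 CPM in control and 11.97, 10.95 and 10.9 CPM in ethanol libraries (log2 fold change -0.10 ± 0.063, edgeR adjusted p = 0.339). With a mean of 12.7 ± 0.545 CPM in IP control libraries (SD, n = 6) *Ezh2* is among the less abundant members.

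Of the H4K20 enzymes, *Kmt5a*, the monomethyltransferase of mitotic chromatin, was called lower in input, where control libraries held 125, 122 and 119 CPM and ethanol libraries 119, 112 and 113 CPM (log2 fold change -0.092 ± 0.025, edgeR adjusted p = 0.00312). The call was lost without input control replicate 4 (adjusted p = 0.0654), and in IP, with 70.8 to 82.8 CPM (median 77.4) in control and 65.7 to 78.5 CPM (median 70.5) in ethanol libraries, the log2 fold change was -0.11 ± 0.041 (edgeR adjusted p = 0.0596). *Kmt5c*, which carries this mark on to di- and trimethylation, rose in IP (log2 fold change 0.17 ± 0.048, edgeR adjusted p = 0.00444) and had -0.014 ± 0.057 in input (adjusted p = 0.928). *Setdb1*, an H3K9 methyltransferase that silences retroelements, was called higher in input, with 32.9, 33.3 and 32.1 CPM in control and 36.0, 34.2 and 36.3 CPM in ethanol libraries (log2 fold change 0.11 ± 0.039, edgeR adjusted p = 0.0323). Leaving out control replicate 4 or 6 or ethanol replicate 4 or 6 ended that call (adjusted p up to 0.174), and so did removal of GC and length trends (0.0516). In IP *Setdb1* held 29.2 to 33.6 CPM (median 32.8) in control and 31.2 to 35.4 CPM (median 32.7) in ethanol libraries (log2 fold change 0.030 ± 0.035).

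With 21.4% of all genes called in IP and 15.0% in input, none of the 6 other Setd genes was called in either fraction. They include *Setd2*, which trimethylates H3K36 along transcribed genes, with log2 fold changes of 0.058 ± 0.026 in IP and 0.051 ± 0.027 in input. Over the 6 genes the log2 fold changes ran from -0.10 (*Setd6*) to 0.058 (*Setd2*) in IP and from -0.10 to 0.051 for the same genes in input. By edgeR 2 of the 6 had an unadjusted p below 0.05 in IP and 0 in input.

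Of the 17 demethylases 7 (41.2%) were called higher in IP and none lower, where 37.7% of the protein-coding genes averaging at least 1 CPM were called in either direction and 11.9% of all genes were called higher. In this group 16 of 17 log2 fold changes were above 0, with a median of 0.074. In input 5 were called higher and 1 lower, with a median of 0.033. After removal of GC and length trends 3 were called in IP, all higher, the median was 0.040 and 13 of 17 values were above 0.

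*Kdm3a* (ENSMUSG00000053470, chr6:71588972-71632990, minus strand), which removes H3K9 mono- and dimethylation and is induced by hypoxia, had the largest increase among them in IP. It held 54.9 to 57.8 CPM (median 57.2) in IP control and 59.0 to 65.4 CPM (median 63.4) in IP ethanol libraries, without overlap (increase of 11.9%, log2 fold change 0.16 ± 0.028, edgeR adjusted p = 1.01e-05). In input control libraries it held 60.0, 54.9 and 62.1 CPM and in input ethanol libraries 67.4, 63.9 and 62.1 CPM (log2 fold change 0.12 ± 0.031, edgeR adjusted p = 0.000687). The input call was lost without control replicate 5, the lowest (adjusted p = 0.172).

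Its paralog *Kdm3b* (ENSMUSG00000038773) held 78.1 to 82.1 CPM (median 81.0) in IP control and 82.6 to 90.1 CPM (median 85.5) in IP ethanol libraries (log2 fold change 0.094 ± 0.026, edgeR adjusted p = 0.00468). The H3K36 demethylase *Kdm2a* (ENSMUSG00000054611, chr19:4314419-4398285, minus strand) held 144 to 149.7 CPM (median 148.2) and 152.7 to 159.6 CPM (median 155.8) (log2 fold change 0.088 ± 0.023, edgeR adjusted p = 0.00333). *Kdm4a* (ENSMUSG00000033326, chr4:118136957-118180043, minus strand), which acts on H3K9 and H3K36 trimethylation, held 131 to 140.1 CPM (median 139) and 141 to 148.997 CPM (median 143) (log2 fold change 0.070 ± 0.024, edgeR adjusted p = 0.0285). For all 3 genes the IP groups did not overlap, yet the distance between them was small, and after removal of GC and length trends none passed the test, with adjusted p-values of 0.194, 0.233 and 0.333 by edgeR.

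The *Kdm4a* call was also lost without any one of control replicates 1, 2, 3, 4 and 6 and ethanol replicates 2, 4 and 6 (adjusted p up to 0.198). In input the 3 genes were not called: *Kdm3b* held 74.2, 74.0 and 75.3 CPM in control and 78.2, 76.8 and 74.3 CPM in ethanol libraries, *Kdm2a* 134, 127 and 132 against 137, 132 and 131 CPM, and *Kdm4a* 124, 127 and 124 against 128, 125 and 127 CPM. Their log2 fold changes in input were 0.034 ± 0.028, 0.017 ± 0.025 and 0.019 ± 0.025.

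The other demethylases that rose in IP were *Kdm5b*, an H3K4 demethylase (log2 fold change 0.13 ± 0.028, edgeR adjusted p = 0.000293), *Kdm4b* (0.12 ± 0.029, adjusted p = 0.000746) and the X-linked H3K27 demethylase *Kdm6a* (0.11 ± 0.036, adjusted p = 0.0216). *Kdm5b* and *Kdm6a* rose in input too, by 0.13 ± 0.029 and 0.12 ± 0.040 on the log2 scale. After removal of GC and length trends the IP values were 0.081 (*Kdm5b*, adjusted p = 0.11), 0.055 (*Kdm4b*, 0.108) and 0.082 (*Kdm6a*, 0.0423), by edgeR. The *Kdm6a* call in IP did not hold without control replicate 2 or 3 or ethanol replicate 1 or 5 (adjusted p up to 0.115), and in input it did not hold without control or ethanol replicate 5 or 6 (up to 0.128) nor after removal of the trends (0.106).

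*Kdm6b*, the inducible H3K27 demethylase also called JMJD3, fell in input, where control libraries held 59.9, 60.1 and 61.7 CPM and ethanol libraries 58.7, 54.8 and 52.1 CPM (log2 fold change -0.14 ± 0.031, edgeR adjusted p = 0.000253). In IP its groups overlapped, with 39.1 to 44.4 CPM (median 40.2) in control and 37.4 to 44.1 CPM (median 42.0) in ethanol libraries (log2 fold change 0.029 ± 0.034). *Kdm7a*, which acts on H3K9 and H3K27 dimethylation, rose in input from 18.1, 16.0 and 17.8 CPM in control to 19.5, 20.4 and 20.3 CPM in ethanol libraries (log2 fold change 0.21 ± 0.051, edgeR adjusted p = 0.000531). That call was lost without control replicate 5 (adjusted p = 0.0527). The IP libraries of *Kdm7a* held 14.5 to 16.4 CPM (median 15.5) in control and 15.8 to 19.4 CPM (median 16.1) in ethanol dishes (log2 fold change 0.11 ± 0.044, edgeR adjusted p = 0.0796).

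*Kdm5a*, which removes H3K4 trimethylation, rose in input as well, from 84.2, 81.7 and 82.1 CPM to 87.5, 89.7 and 88.1 CPM (log2 fold change 0.094 ± 0.027, edgeR adjusted p = 0.0061). The call was lost without input control replicate 5 (adjusted p = 0.055) and after removal of GC and length trends (0.0553). In IP *Kdm5a* held 79.8 to 87.8 CPM (median 83.1) in control and 81.3 to 98.3 CPM (median 87.1) in ethanol libraries, where ethanol replicates 1 and 5 were high and the other 4 lay among the controls (log2 fold change 0.088 ± 0.041). *Kdm1a* was called in IP only after removal of the trends (0.056, edgeR adjusted p = 0.0493). The remaining demethylases, *Kdm1b*, *Kdm2b*, *Kdm4c*, *Kdm4d*, *Kdm5c* and the Y-linked *Kdm5d*, were called in neither fraction, and *Kdm4d*, the least abundant member, had the widest error (log2 fold change -0.46 ± 0.20 in input).

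**Figure D4:**
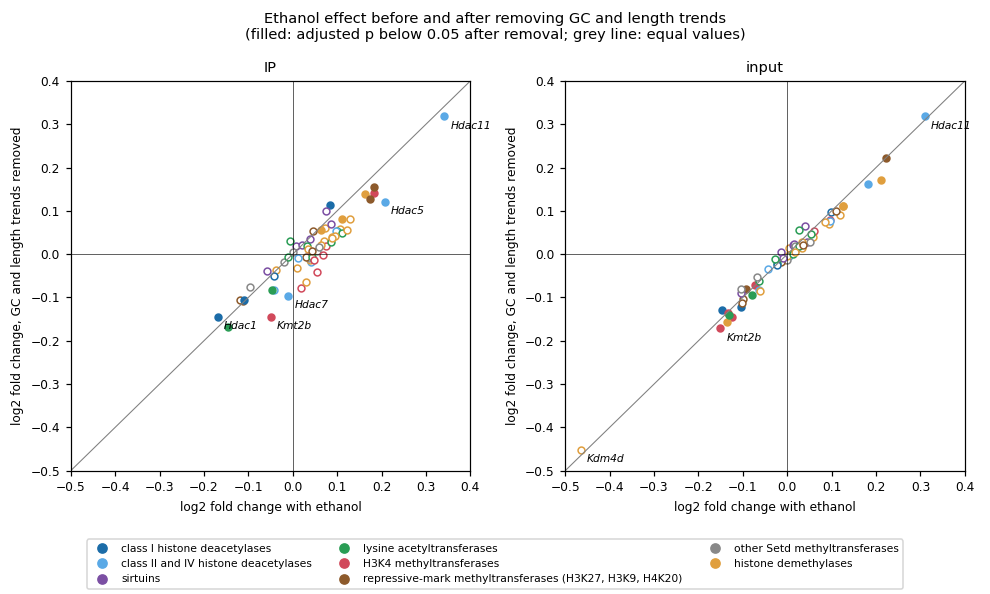
Log2 fold change with ethanol before (horizontal axis) and after (vertical axis) removal of GC and length trends, for the 64 members in IP (left) and input (right), coloured by role, with filled points for an adjusted p below 0.05 after removal and a grey line for equal values. In IP most points with a positive value lie below the line, while *Hdac11* stays at 0.32 and *Kmt2b* moves from -0.050 to -0.14. In input the points lie closer to the line.

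Whether ethanol acted differently on the members in IP and input was tested as the interaction of fraction and treatment over the 18 libraries. No member was called, and of all genes 0.0% (0 of 24495) were called by edgeR and 0.00816% (2 genes) by DESeq2, while 5.96% had an unadjusted p below 0.05. Among the 64 members 3 had an unadjusted p below 0.05. The median difference over the members was 0.023 on the log2 scale, beside -0.00024 over all genes. Hence the 9 members called in IP only and the 9 called in input only were not shown to differ between the fractions by this test.

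The IP and input libraries of replicates 4 to 6 were made from the same dishes. With the dish as a block over these 12 libraries, the ethanol effect differed between the fractions in 4 members, while 0.416% of all genes were called. The 4 genes were *Kmt2d* (difference of log2 fold changes, IP minus input, 0.21, edgeR adjusted p = 0.00878), *Kdm6b* (0.20, adjusted p = 0.0227), *Kmt2a* (0.18, adjusted p = 0.00696) and *Kat6a* (0.18, adjusted p = 0.0107). In each the ethanol effect was higher in IP than in input. Without the block the same 12 libraries gave 0 members. When GC and length trends were removed in the same fit, no member was called and 0.216% of all genes were.

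More members were called between the fractions, over 18 libraries, than for ethanol in either fraction. Of the 64 members 35 differed between IP and input, 27 higher and 8 lower in IP (edgeR, all 18 libraries, with a term for treatment). Over all genes 51.0% were called (25.2% higher and 25.8% lower), and over protein-coding genes averaging at least 1 CPM 76.6%, so the members' share lay between these values. In 20 members, 17 higher and 3 lower, the 12 IP libraries did not overlap the 6 input libraries, as for 25.0% of all genes (13.1% higher and 11.9% lower). The median log2 fold change over the members was 0.039, beside -0.028 over all genes and 0.036 over the protein-coding genes averaging at least 1 CPM. With total counts it was -0.012, with 31 values above 0 and 33 below, in place of 40 and 24. All 35 calls held without each of the 18 libraries in turn, and 10 members, 7 higher and 3 lower, passed a test against a fold change of 1.2, which 20.2% of all genes passed. With libraries scaled by total counts in place of TMM, 43 members were called, 26 higher and 17 lower, so the split of higher and lower calls depends on the scaling.

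**Figure D5:**
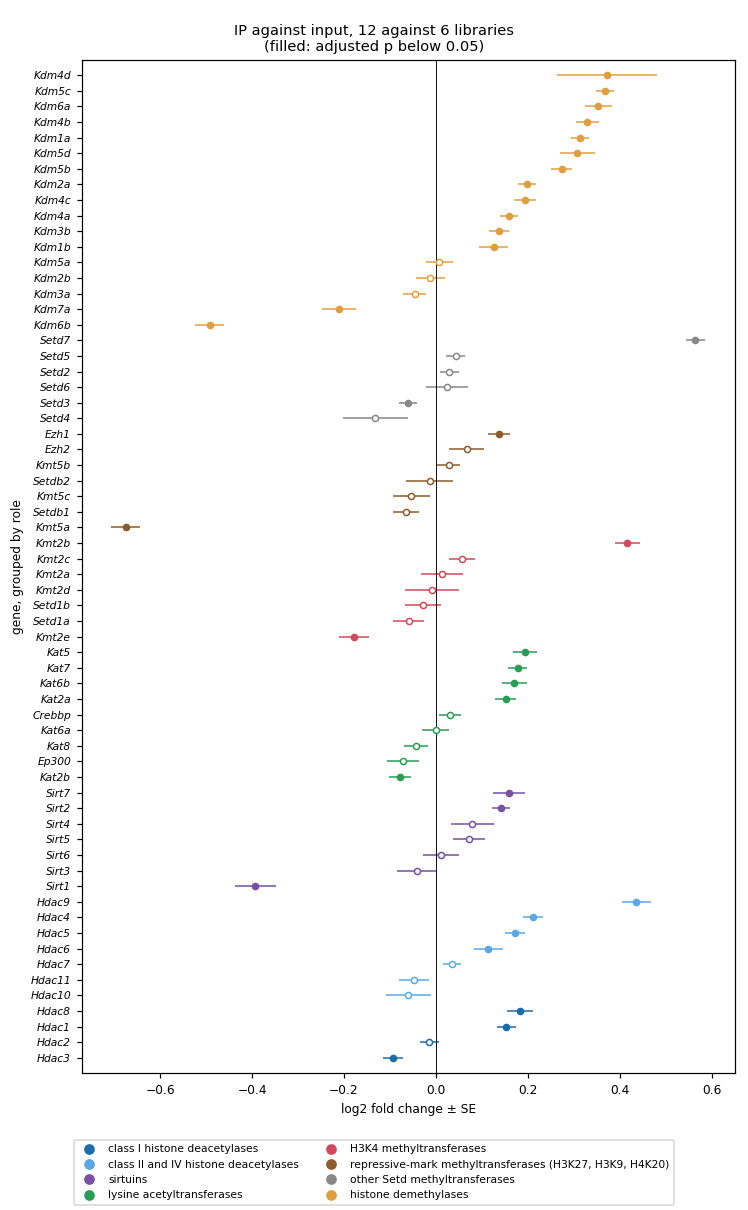
Log2 fold change of IP against input (± SE, 12 against 6 libraries) for each member, grouped and coloured by role, with filled points for an adjusted p below 0.05. *Setd7* lies furthest to the right and *Kmt5a* and *Kdm6b* furthest to the left, and most demethylases lie right of zero.

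Of the 17 demethylases 14 (82.4%) were called between the fractions, beside 76.6% of the protein-coding genes averaging at least 1 CPM. Over all genes 51.0% were called, 25.2% higher in IP. The called demethylases were mostly higher in IP, with 12 higher and 2 lower (12 and 3 with total counts). The largest increases among them were those of *Kdm4d* (0.37 ± 0.11), *Kdm5c* (0.37 ± 0.019), *Kdm6a* (0.35 ± 0.029), *Kdm4b* (0.33 ± 0.025) and *Kdm1a* (0.31 ± 0.020) as log2 fold changes, while *Kdm6b* and *Kdm7a* were lower. *Kdm6b* held 37.4 to 44.4 CPM (median 40.9) in the 12 IP libraries and 52.1 to 61.7 CPM (median 59.3) in the 6 input libraries, without overlap (1.41-fold lower in IP, log2 fold change -0.49 ± 0.032, edgeR adjusted p = 1.71e-15). Its paralog *Kdm6a* thus lay on the other side.

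*Setd7*, which monomethylates H3K4 and several non-histone proteins, had the largest increase of the 64, with 229 to 263 CPM (median 248) in IP and 165.7 to 172 CPM (median 168.1) in input (1.48-fold higher, log2 fold change 0.56 ± 0.021, edgeR adjusted p = 1.09e-35). *Hdac9* followed with 21.7 to 25.4 CPM (median 23.3) in IP and 16.2 to 18.3 CPM (median 17.6) in input (log2 fold change 0.44 ± 0.032, edgeR adjusted p = 5.13e-20), and *Kmt2b* with 55.003 to 65.9 CPM (median 59.8) against 39.8 to 49.5 CPM (median 45.5) (log2 fold change 0.42 ± 0.027, edgeR adjusted p = 1.07e-20). For all 3 the lowest IP library lay above the highest input library. The other *Kmt2* genes did not share the shift of *Kmt2b*: *Kmt2a*, *Kmt2c* and *Kmt2d* were not called, with log2 fold changes from -0.0087 to 0.057, and *Kmt2e* was lower in IP (-0.18 ± 0.032, edgeR adjusted p = 4.97e-05).

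*Kmt5a* had the largest decrease, with 65.7 to 82.8 CPM (median 74.0) in IP and 112 to 125 CPM (median 119) in input (1.60-fold lower, log2 fold change -0.67 ± 0.032, edgeR adjusted p = 1.04e-15). *Sirt1* held 6.41 to 8.39 CPM (median 7.32) in IP and 9.26 to 10.1 CPM (median 9.70) in input, without overlap (log2 fold change -0.39 ± 0.045, edgeR adjusted p = 4.17e-12), whereas *Sirt2* (0.14 ± 0.019) and *Sirt7* (0.16 ± 0.035) were higher in IP. Among the deacetylases *Hdac1* (0.15 ± 0.021) and *Hdac8* (0.18 ± 0.029) were higher and *Hdac3* (-0.093 ± 0.023) lower in IP, and 4 of the 7 class II and IV genes were higher and none lower (3 higher and 1 lower with total counts). Of the acetyltransferases 4 were higher and 1 lower (4 and 3 with total counts), with *Kat5*, *Kat7* and *Kat2a* separate from input in every library. Between the fractions 76.6% of protein-coding genes averaging at least 1 CPM and 51.0% of all genes were called. *Ezh1* was higher in IP (0.14 ± 0.024, edgeR adjusted p = 1.3e-06), and *Ezh2* did not pass the test (0.067 ± 0.037, adjusted p = 0.136). Microglia markers moved with the fraction, 9 of 10 lower in IP with a median log2 fold change of -2.46, and 9 of 10 astrocyte markers were higher, with a median of 0.61. The lists of other cell types went both ways. Of 10 fibroblast and meningeal markers 3 were called higher and 6 lower in IP (median -0.67), and of 9 endothelial and mural markers 2 and 4. Oligodendrocyte lineage markers gave 5 higher and 4 lower of 10, and neuron markers 4 and 2 of 10. The part of these cell types in the differences of the enzyme genes was not tested.

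Genes that work beside these enzymes were counted in the same comparisons, where 21.4% of all genes were called for ethanol in IP and 15.0% in input. Of 27 partner subunits of the Polycomb complexes 1 was higher and 3 were lower with ethanol in IP (median log2 fold change 0.0078), and 2 and 2 in input. *Eed*, the PRC2 subunit that binds trimethylated H3K27, fell in IP from 34.6 ± 0.975 to 32.0 ± 1.01 CPM (mean ± SD, n = 6; log2 fold change -0.10 ± 0.032, edgeR adjusted p = 0.0124), while *Cbx2*, a PRC1 reader, rose from 4.60 ± 0.305 to 5.61 ± 0.455 CPM (0.29 ± 0.064, adjusted p = 0.000398).

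Of 29 measured subunits of deacetylase complexes 8 were higher and 4 lower in IP (median 0.036), and 2 and 2 in input. *Sap18*, a SIN3 subunit that also belongs to splicing complexes, fell from 561 ± 16.8 to 456 ± 7.71 CPM in IP (log2 fold change -0.29 ± 0.023, edgeR adjusted p = 1.28e-15). *Mbd3*, of the NuRD complex that holds HDAC1 and HDAC2, fell by less (-0.13 ± 0.030, adjusted p = 0.000474), and the HDAC1/2 partners *Mier1* and *Trerf1* rose (0.18 ± 0.031, adjusted p = 4.54e-06, and 0.20 ± 0.040, adjusted p = 8.19e-05). The 12 calls (41.4%) stand beside 37.7% of the protein-coding genes averaging at least 1 CPM.

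Of 42 subunits of acetyltransferase complexes 12 were higher and 4 lower in IP (median 0.022), and 7 and 2 in input. *Usp22*, the ubiquitin protease of the SAGA complex, rose from 154.5 ± 3.52 to 172 ± 2.59 CPM (0.17 ± 0.024, edgeR adjusted p = 1.19e-07), and *Morf4l2* fell from 302 ± 7.78 to 275 ± 3.40 CPM (-0.13 ± 0.023, adjusted p = 9.3e-06). Of 13 measured subunits of the H3K4-methylating COMPASS complexes 2 were higher and 1 lower in IP, and 1 and 3 in input, with *Ncoa6* the largest increase in IP (0.12 ± 0.026, edgeR adjusted p = 0.000415). Of 27 readers of acetyl and methyl marks 6 were higher and 2 lower in IP, and 2 and 3 in input. *Cbx5*, which encodes HP1α, the reader of methylated H3K9, fell in IP from 197 ± 6.11 to 184 ± 5.19 CPM (-0.087 ± 0.024, edgeR adjusted p = 0.006).

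Other histone-modifying enzymes, outside the symbols above, were also counted. Of 27 other histone methyltransferases 5 were higher and 4 lower in IP, and 1 and 3 in input. The arginine methyltransferase *Prmt1* fell from 121 ± 3.74 to 97.1 ± 2.59 CPM in IP (log2 fold change -0.31 ± 0.026, edgeR adjusted p = 5.74e-15, and -0.24 ± 0.026 in input), and *Prmt7* from 26.9 ± 0.747 to 22.4 ± 0.736 CPM (-0.25 ± 0.035, adjusted p = 4.57e-08). *Smyd3* rose (0.21 ± 0.039, adjusted p = 3.96e-05). Of 18 other demethylases and acetyltransferases 5 were higher and 2 lower in IP, and 3 and 0 in input, with *Hat1*, which acetylates newly made histone H4, lower (-0.14 ± 0.035, edgeR adjusted p = 0.00127) and *Jmjd1c*, a relative of *Kdm3a*, higher (0.17 ± 0.033, adjusted p = 4.04e-05).

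The supply of acetyl-CoA and S-adenosylmethionine was represented by 19 measured genes, of which 2 were higher and 2 lower with ethanol in IP, and 1 and 3 in input. *Ahcyl1* and *Ahcyl2*, which encode proteins related to S-adenosylhomocysteine hydrolase, moved in opposite directions. *Ahcyl1* fell in both fractions (IP -0.11 ± 0.023, edgeR adjusted p = 0.000229, input -0.12 ± 0.023, adjusted p = 1.9e-05) and *Ahcyl2* rose in both (IP 0.13 ± 0.027, adjusted p = 0.000227, input 0.10 ± 0.029, adjusted p = 0.00544). Between the fractions, 12 of the 19 were higher in IP and 3 lower. These 15 calls (78.9%) stand beside 76.6% of the protein-coding genes averaging at least 1 CPM and 51.0% of all genes.

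Markers of other cell types moved with ethanol in part. The summed level of 10 endothelial and mural markers, of which 9 were tested, was 1625 to 1759 CPM in IP control and 1052 to 1247 CPM in IP ethanol libraries, nearly all of it *Acta2*, the smooth muscle actin of mural and reactive cells (1589 ± 56.9 against 1069 ± 69.3 CPM). The summed astrocyte markers were 2383 to 2461 CPM in IP control and 2474 to 2562 CPM in IP ethanol libraries, with 4 of the 10 higher and 1 lower, and the summed microglia markers 15.0 to 16.4 and 15.1 to 19.2 CPM. Oligodendrocyte lineage markers summed to 403 to 424 and 378 to 411 CPM, neuron markers to 137 to 144.8 and 124 to 132 CPM, and fibroblast and meningeal markers to 1770 to 1808 and 1644 to 1885 CPM. In IP control the highest oligodendrocyte lineage markers were *Olig1* (207 CPM), *Cnp* (132 CPM) and *Olig2* (46.7 CPM), and 3 of the 10 averaged below 1 CPM. The highest neuron markers were *Stmn2* (108 CPM) and *Tubb3* (20.9 CPM), and 6 of the 10 averaged below 1 CPM. The part of these markers in the ethanol effects on the enzyme genes was not tested.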

How the data were processed

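RNA of 18 libraries was sequenced in pairs. After trimming with Trimmomatic and STAR alignment to GRCm38 with Ensembl genes, the authors deposited raw counts of read pairs per gene, taken without regard to strand, with counts for each strand beside them. Versions were not given in the sources used here. A median of 5.5% of pairs per library was set aside as ambiguous between overlapping genes.

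From these counts, genes with at least 10 pairs over the 18 libraries were kept (24495). CPM were scaled with TMM, and log2 fold changes came from quasi-likelihood fits (edgeR 4.0.16, limma 3.58.1, R 4.3.3), with Benjamini-Hochberg adjustment over all genes kept and a threshold of 0.05. Ethanol was tested within IP and within input, the fractions over all libraries with a treatment term, and their interaction over all libraries. The scripts were tested on simulated data. Alternatives were DESeq2 1.42.0 and its size factors, total counts, other filters, counts of the annotated strand, a fold change of 1.2, natural splines of GC content and transcript length with 4 degrees of freedom removed as offsets, replicate blocks, parts of the replicates (for the interaction, without the dish block, chosen after seeing the data) and each library left out. Gene positions, lengths and GC content came from GENCODE M21 (GRCm38), and promoter sequences from RefSeq (GRCm38.p6). *Hdac3* and *Kdm3b* are given without position or sequence.

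Input replicates 4 to 6 are aliquots of the dishes of IP replicates 4 to 6. Deviations of these paired libraries from their group means correlated at 0.0191 to 0.153 (6 pairs). The dish served as a block only in separate fits of replicates 4 to 6. The main tests between fractions and of the interaction, over all 18 libraries, held no term for the dish.

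The members, roles and gene lists were chosen with earlier results of these data known. Values are given in every library or as a range for members without overlap in IP, for the 3 largest differences between fractions in each direction, for members called in input alone and for *Crebbp*, *Ep300*, *Ezh1*, *Ezh2*, *Hdac1* and *Hdac2*. Ranges of *Hdac9* and *Sirt2* with ethanol, outside this rule, were added after their values were seen. From each partner list, genes are named among the 2 largest increases and 2 largest decreases called in IP.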

Additional observations from a re-analysis of the deposited data

Results flagged for a closer look

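In 6 cases 1 library stood apart in a named member, each time as the highest or lowest of 6 IP libraries with a wide gap to the next. *Hdac1* was lowest in IP ethanol replicate 5 at 83.3 CPM, with the next library at 87.8 CPM. *Kdm4a* was lowest in IP control replicate 4 at 130.98 CPM, with the next at 137.5 CPM, and its call in IP was lost without that library (adjusted p = 0.198). *Setdb1* was lowest in the same control library at 29.2 CPM, with the next at 32.3 CPM. *Kdm7a* was highest in IP ethanol replicate 5 at 19.4 CPM, with the next at 16.6 CPM. *Kmt2d* and *Setd1b* were lowest in IP ethanol replicate 3, at 42.8 and 36.3 CPM, with the next libraries at 51.3 and 41.4 CPM. In all, 50 groups of 6 libraries over 25 members were examined, and chance gives such a gap in about 1 in 20 groups.

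The ethanol effect differed between the fractions in 4 members when the dish was kept as a block over the 12 libraries of replicates 4 to 6. The differences, IP minus input on the log2 scale, were 0.18 for *Kat6a* (edgeR adjusted p = 0.0107), 0.18 for *Kmt2a* (adjusted p = 0.00696), 0.20 for *Kdm6b* (adjusted p = 0.0227) and 0.21 for *Kmt2d* (adjusted p = 0.00878). The interaction without the block called none of them, over all 18 libraries or over the same 12, and neither did the block with GC content and length trends removed.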

How the results depend on the processing

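Most counts of called members kept their size under the alternatives. For ethanol in IP, where 19 members were called, the count was 21 with DESeq2, 18 with DESeq2 size factors, 18 with total counts, 20 without the filter, 18 with counts of the annotated strand, 15 with GC content and length trends removed and 15 to 20 when each library was left out in turn. It was 0 against a fold change of 1.2, 9 with replicates 1 to 3 alone and 16 with replicates 4 to 6 alone, where fewer libraries entered each fit. For ethanol in input, where 19 members were called, the count was 0 against a fold change of 1.2, 18 with the trends removed and 15 to 19 when each library was left out. Between the fractions the count of 35 fell to 10 against a fold change of 1.2, was 43 with total counts and lay between 35 and 38 when each library was left out. The interaction called 0 members in every fit without the dish as a block, including 0 when each library was left out. The split of the input calls went from 10 higher and 9 lower to 7 higher and 11 lower with the trends removed, and the median over the members between the fractions went from 0.039 to -0.012 with total counts. Of 630 values of single members under alternatives, over 28 results, 553 kept their side of the threshold, 74 lost it and 3, all of *Ep300* in IP, passed it.

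Control and ethanol dishes of the same number share only a number: the correlation of their deviations ran from -0.10 to 0.22 in IP and from 0.019 to 0.066 in input. With the replicate number as a block 23 members were called in IP and 19 in input, and with the trends also removed 19 and 20. Between the fractions, where the number marks the same dish, the block over replicates 4 to 6 gave 36 members against 35 without it. In the interaction the same block gave 4 members, and 0 with the trends removed. The interaction over the same 12 libraries without the block, an alternative chosen after seeing the data, gave 0.

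Precision was lowest for members near 1 CPM such as *Kdm4d*. The number of input dishes was small, and 8 of the 19 input calls held without each of the 6 libraries in turn, against 14 of the 19 IP calls without each of the 12.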
